A study of Mus musculus with 7 samples.

Results

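The 36 genes described here are known for their work in T cells, natural killer (NK) cells and cytotoxic lymphocytes. They were taken by name from a list of T cell receptor, coreceptor, signalling, NK receptor, cytotoxic effector and transcription factor genes, a rule that uses no measured value. They make up 36 of the 53458 genes counted. RNA was sequenced from LT-HSCs, the long-term stem cells of the blood system, in 7 libraries, each from the marrow of 1 mouse. There were 3 libraries from Srp72+/- mice, which are heterozygous for Srp72, a gene of the signal recognition particle, and 4 from wild-type mice labelled Srp72+/+ (WT). All mice were aged and of the strain C57/BL6. The sources used here state neither their exact age nor which part of the gene was altered. Marrow cells were gated by flow cytometry as negative for CD3, Mac1, Gr1, B220, Ter119, Flt3 and CD48 and as positive for CD150, cKit and Sca1, so that cells carrying CD3, the surface complex of T cells, were to be left out.

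T cells recognise antigen through a receptor of an alpha and a beta chain, which signals through the CD3 chains and CD247. The kinase Lck then activates the kinase Zap70, which phosphorylates the adaptor Lat, on which the signalling complex is built, and the coreceptors CD4 and CD8 bring Lck to the receptor. NK cells carry no such receptor and use germline-encoded receptors such as NKG2D (Klrk1), NKp46 (Ncr1) and NK1.1 (Klrb1c), and both cell classes kill with perforin and granzymes. In the marrow, mature T and NK cells are small populations beside the myeloid, erythroid and B lineage cells.

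The libraries held between 18370936 and 35247472 estimated reads in Srp72+/- and between 18054322 and 21826533 in WT. Levels are given in CPM, the unit of reads scaled to a common library size. The limit that a count of 0 allows was taken as 3 reads, between 0.0852 and 0.166 CPM before TMM scaling. With the TMM scaling of the levels given here, the limit of 3 reads was 0.191 CPM in WT 2 and 0.0908 CPM in Srp72+/- 3. These limits cover counting error only. WT 2 stood apart from the other libraries. The 21 HSC genes summed to 2100, 3260 and 3470 CPM in Srp72+/- 1, 2 and 3, against 3950, 446, 3260 and 3790 CPM in WT 1, 2, 3 and 4. The 12 neutrophil genes summed to 11500, 5110 and 1040 CPM in Srp72+/-, against 93.8, 35900, 8440 and 2620 CPM in WT. Srp72 itself had a log2 fold change of -0.50 (SE 0.32), which did not pass the test (adjusted p = 0.9998 by the quasi-likelihood test of edgeR). When 1 library was left out, its log2 fold change lay between -0.87 and -0.25.

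Most of the 36 genes were present at a few CPM or less, and 3 of them, Cd27, Lat and Klrb1c, made up most of the group's signal in every library but a pair. All 36 genes exceeded 3 reads in at least 1 library, but only 14 did so in all 7. By library, 34, 34 and 25 of the 36 genes exceeded 3 reads in Srp72+/- 1, 2 and 3, against 18, 34, 23 and 26 in WT 1, 2, 3 and 4. The genes with no read at all numbered 2, 0 and 7 in the Srp72+/- libraries and 12, 0, 10 and 7 in the WT libraries. The deepest library, Srp72+/- 3, was thus among those with undetected genes, while WT 2, with 18499250 reads, had none.

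The sum over all 36 genes was 152, 134 and 183 CPM in Srp72+/- 1, 2 and 3 and 115, 162, 186 and 198 CPM in WT 1, 2, 3 and 4. Cd27, Lat and Klrb1c held 35.1%, 64.7% and 82.0% of that sum in the Srp72+/- libraries and 80.1%, 15.0%, 76.4% and 76.2% in the WT libraries. Their share was low in Srp72+/- 1 and in WT 2 and lay above 60% elsewhere. The other 33 genes together summed to 98.8, 47.4 and 33.0 CPM in Srp72+/- and to 22.9, 138, 43.9 and 47.2 CPM in WT, so that WT 2 and Srp72+/- 1 were the highest of the 7. In bulk RNA, fewer cells of a type and less RNA per cell cannot be told apart, and this holds for every level given here. The heat map of all genes by library shows 3 bright rows above a dim background that brightens in Srp72+/- 1 and WT 2.

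**Figure D1:**
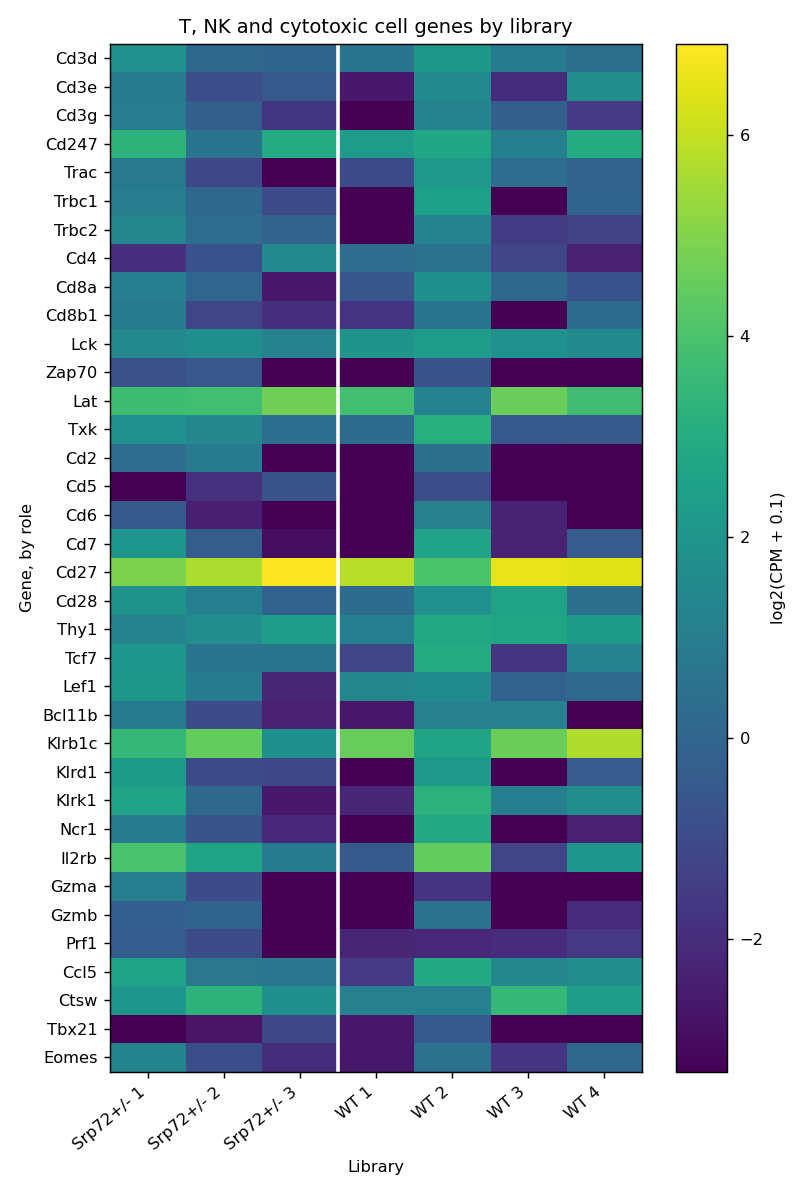
Heat map of the level of each of the 36 genes (rows, ordered by role) in each library (columns, Srp72+/- left of the white line and WT right of it), as log2(CPM + 0.1). Cd27, Lat and Klrb1c stand out in most libraries, and dark cells are genes at or near 0, of which WT 1 has 12 at 0.

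Between the genotypes, 0 of the 30 genes that passed the filter on low counts passed a false discovery rate (FDR) of 0.05 (edgeR quasi-likelihood test), and 0 had an unadjusted p below 0.05. Over all 20314 tested genes, 0 passed the FDR (0%) and 365 had an unadjusted p below 0.05 (1.8%). DESeq2 called 9 genes (0.0443%), none of them among the 36. The smallest unadjusted p among the 30 was 0.193, for Klrb1c, and the adjusted p was 0.9998 for each of them. Fitted values were higher in Srp72+/- for 14 genes and lower for 16, against 49.3% and 50.7% of all tested genes. The median log2 fold change of the 30 was -0.10, beside -0.01 over all tested genes. Standard errors ran between 0.44 and 1.96 with a median of 1.17 on the log2 scale, so most differences short of several-fold were not detectable with these libraries. In 0 of the 30 genes did the groups fail to overlap, where 3.57% of all tested genes had groups that do not overlap. Without WT 2 the median was 0.44, with 16 of 24 tested genes higher, beside a median of 0.036 over all tested genes. Cd2, Cd8b1, Bcl11b, Klrd1, Ncr1 and Gzmb did not pass the filter without WT 2, so the 24 are not the same set as the 30. Without Srp72+/- 1 the median was -1.05, with 23 of 30 lower, beside -0.026 over all tested genes. For 20 of the 30 genes the direction turned when 1 of the 7 libraries was left out, among the fits in which the gene passed the filter. Cd2, Bcl11b and Ncr1, which are not among the 20, had no fit without WT 2. The same count was not made over all tested genes.

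**Figure D2:**
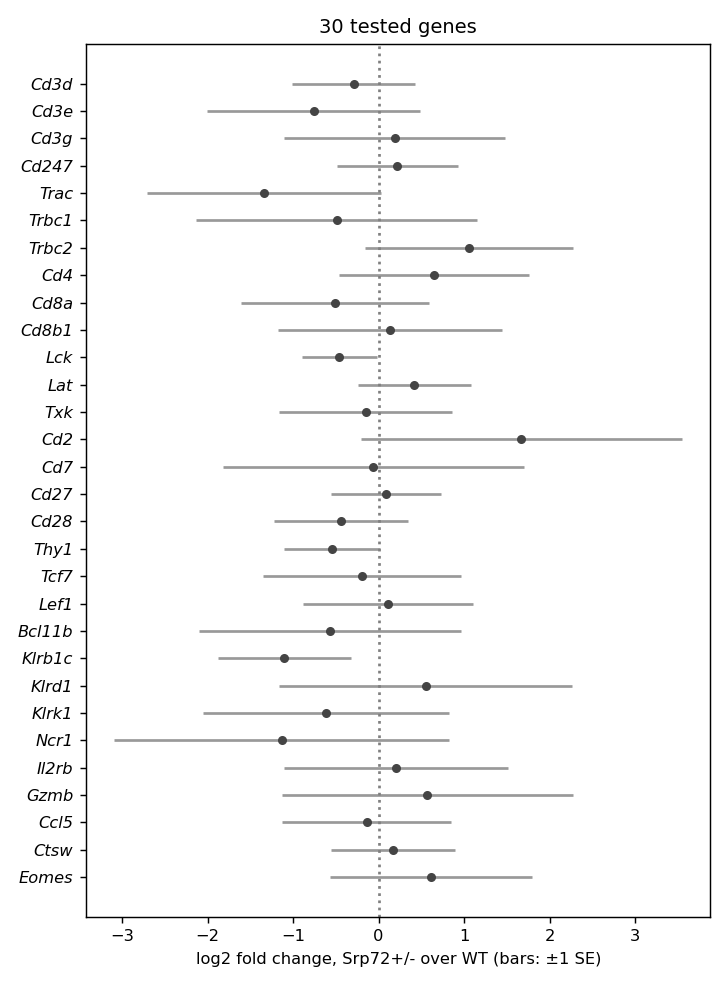
The log2 fold change of each of the 30 tested genes, Srp72+/- over WT, from the edgeR fit, with bars of 1 standard error on either side. Values run between -1.34 for Trac and 1.67 for Cd2, and the bars of most genes cross 0.

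Cd27 encodes a receptor of the tumour necrosis factor receptor family that costimulates T cells and is also known from haematopoietic progenitors. It lies on chromosome 6 (125232622 to 125237010, minus strand, GRCm38). It measured 29.2, 50.2 and 120 CPM in Srp72+/- 1, 2 and 3, against 55.4, 15.8, 94.3 and 85.7 CPM in WT 1, 2, 3 and 4. WT 2 was the lowest of the 7 libraries and Srp72+/- 3 the highest, and the groups overlapped. The means were 66.6 ± 47.8 CPM in Srp72+/- (SD, n = 3) and 62.8 ± 35.5 CPM in WT (SD, n = 4), a log2 fold change of 0.09 (SE 0.64) that did not pass the test. Per length, on a scale of transcript numbers (TPM) over protein-coding and receptor constant genes, the level of Cd27 had a median of 131 over the 7 libraries. This was the highest of the 36 and stood beside medians of 338 TPM for Kit and 1120 TPM for Hlf, a receptor and a transcription factor of HSCs. Its main coding transcript, Cd27-201, held 68.8% of its reads.

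Lat encodes the membrane adaptor that links the antigen receptor to downstream signalling (chromosome 7, 126363824 to 126369570, minus strand). It measured 13.1, 14.0 and 25.8 CPM in Srp72+/- 1, 2 and 3, against 13.9, 2.23, 23.4 and 13.4 CPM in WT 1, 2, 3 and 4. WT 2 was again the lowest, and the remaining 6 libraries lay within 2-fold of each other. The log2 fold change was 0.42 (SE 0.66), and the median level per length was 35.7 TPM. Reads fell mainly on the coding transcript Lat-201, with 70.7%.

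Klrb1c encodes NK1.1, the receptor by which NK cells are commonly identified in C57BL/6 mice (chromosome 6, 128778485 to 128789215, minus strand). It measured 11.1, 22.5 and 3.44 CPM in Srp72+/- 1, 2 and 3, against 22.7, 6.26, 24.3 and 52.1 CPM in WT 1, 2, 3 and 4. Srp72+/- 3 was the lowest library and WT 2 the next, and WT 4 was the highest. The means were 12.3 ± 9.58 CPM in Srp72+/- (SD, n = 3) and 26.4 ± 19.0 CPM in WT (SD, n = 4), and the log2 fold change of -1.10 (SE 0.78) did not pass the test. The median level per length was 25.6 TPM. Coding transcripts held its reads, 65.9% of them on Klrb1c-203, and 13.9% of its exonic bases are shared with the overlapping gene model Gm44511 on the same strand, whose level was at most 1.24 CPM.

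Lat, Cd27 and Klrb1c were all low in WT 2, and the stretches before their starts are shown here beside that of Klrk1, an NK receptor gene that was highest in WT 2. Each is the 250 bases before the RefSeq start (GRCm38.p6, minus strand), with capitals marking matches on either strand to AGGAAG, a core bound by ETS factors, or TGTGGT, a core bound by RUNX factors.
Cd27, chr6:125237028-125237277: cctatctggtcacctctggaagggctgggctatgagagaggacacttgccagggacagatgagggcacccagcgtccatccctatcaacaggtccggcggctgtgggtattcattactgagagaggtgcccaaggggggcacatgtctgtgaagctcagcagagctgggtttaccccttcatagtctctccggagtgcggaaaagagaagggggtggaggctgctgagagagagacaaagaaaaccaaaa
Lat, chr7:126369569-126369818: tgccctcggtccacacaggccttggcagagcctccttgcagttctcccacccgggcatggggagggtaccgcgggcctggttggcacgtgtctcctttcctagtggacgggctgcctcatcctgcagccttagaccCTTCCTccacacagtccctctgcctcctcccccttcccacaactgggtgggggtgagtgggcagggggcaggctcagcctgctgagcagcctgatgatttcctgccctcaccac
Klrb1c, chr6:128788642-128788891: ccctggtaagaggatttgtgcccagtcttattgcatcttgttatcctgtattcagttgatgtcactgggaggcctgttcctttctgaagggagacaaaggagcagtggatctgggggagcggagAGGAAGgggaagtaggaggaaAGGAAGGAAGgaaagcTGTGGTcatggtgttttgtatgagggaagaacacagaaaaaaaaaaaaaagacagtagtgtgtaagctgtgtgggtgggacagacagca
Klrk1, chr6:129623865-129624114: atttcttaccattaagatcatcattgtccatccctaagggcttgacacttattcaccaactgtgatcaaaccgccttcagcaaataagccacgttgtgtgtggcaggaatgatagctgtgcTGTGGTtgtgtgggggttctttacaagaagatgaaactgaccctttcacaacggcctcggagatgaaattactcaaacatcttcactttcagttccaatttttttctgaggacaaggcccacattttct
The Cd27 stretch held neither motif, that of Lat held 1 ETS match on the reverse strand, and that of Klrb1c held 3 ETS matches, of which 2 overlap, and 1 RUNX match. The Klrk1 stretch held 1 RUNX match. Of 32536 promoter stretches of this length in the table, 29.6% held the ETS letters and 14.0% the RUNX letters, while AGATAA, which factors of the GATA family bind, was in 9.97% and CTTTGA, which TCF and LEF factors bind, in 13.9%. Among the 22 genes of the list with an entry, which have 31 stretches, the ETS letters were in 14, the RUNX letters in 10, the TCF and LEF letters in 5 and the GATA letters in 2. Some stretches of the same gene overlap, and counted by gene the letters were in 12, 9, 5 and 2 of the 22. A match describes letters only.

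**Figure D3:**
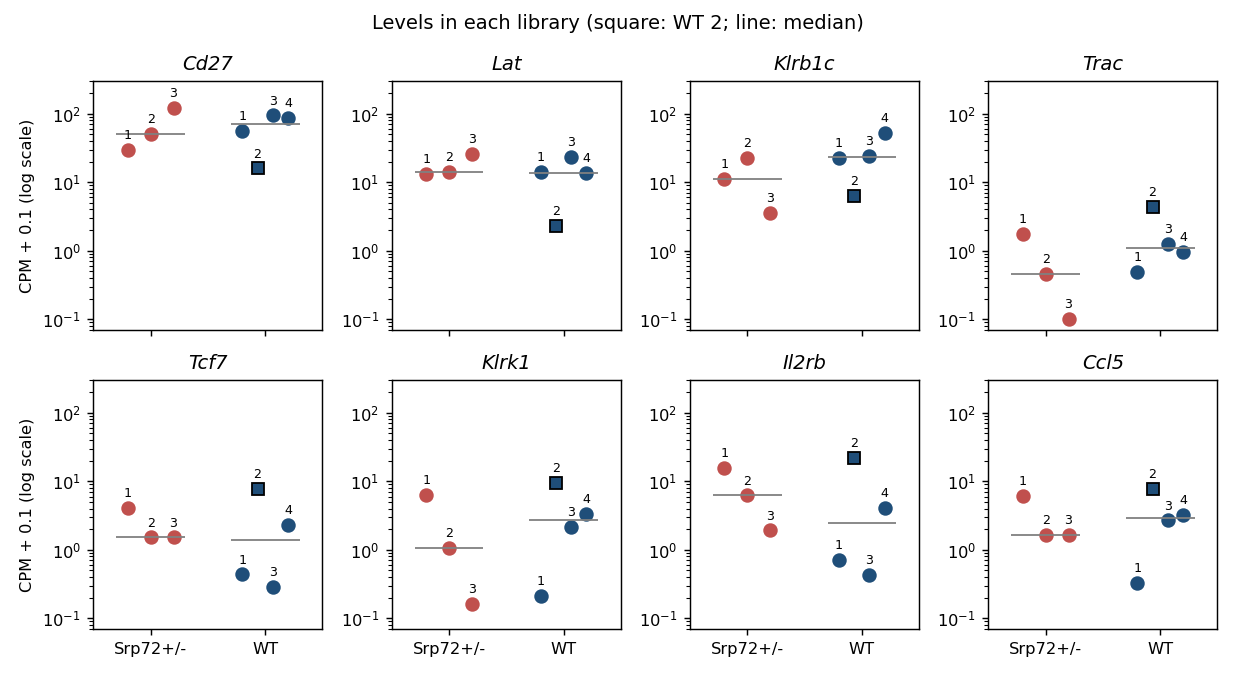
Level of 8 genes in each library, as CPM + 0.1 on a log axis, with Srp72+/- left and WT right in each panel, replicate numbers beside the points, WT 2 as a square and a line at the median of each group. WT 2 is low in Cd27, Lat and Klrb1c and the highest library in Trac, Tcf7, Klrk1, Il2rb and Ccl5.

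The T cell receptor constant regions and CD3 chains were scarce, and the libraries of each genotype differed widely. Trac, the alpha chain constant region (chromosome 14, 54220521 to 54224206), measured 1.64, 0.356 and 0 CPM in Srp72+/- 1, 2 and 3, against 0.392, 4.27, 1.15 and 0.852 CPM in WT 1, 2, 3 and 4. Trbc1 measured 1.93, 1.01 and 0.407 CPM in Srp72+/-, against 0, 5.35, 0 and 0.874 CPM in WT. Trbc2 measured 2.41, 1.17 and 0.834 CPM in Srp72+/-, against 0, 2.31, 0.239 and 0.292 CPM in WT. WT 2 was the highest library for Trac and Trbc1 and the second for Trbc2, Srp72+/- 1 took the other of the top places in all 3, and the groups overlapped in each. Their log2 fold changes were -1.34 (SE 1.37) for Trac, -0.49 for Trbc1 and 1.06 for Trbc2.

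Trbc1 and Trbc2 are alternative beta chain constant regions encoded side by side on chromosome 6, and the division of reads between them is uncertain. Over the first 517 bases of the constant region, Trbc1-202 and Trbc2-201 (GENCODE M21 transcripts) differ at 22 and are 95.7% identical, with an unbroken identical run of 259 bases. The stretch with the most differences, bases 400 to 489 counted from the first base of the constant region, is given with the 14 differing bases in capitals.
Trbc1: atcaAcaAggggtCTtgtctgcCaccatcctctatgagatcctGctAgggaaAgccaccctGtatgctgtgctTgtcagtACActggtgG
Trbc2: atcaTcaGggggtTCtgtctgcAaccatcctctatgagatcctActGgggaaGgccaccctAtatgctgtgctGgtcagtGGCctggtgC
Within the first 517 bases, only reads over such bases tell the genes apart. The transcripts are 737 (Trbc1-202) and 692 (Trbc2-201) bases long. Reads over the rest, which was not compared, may tell them apart too.

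Among the CD3 chains, Cd3d measured 3.47, 0.993 and 0.882 CPM in Srp72+/- 1, 2 and 3, against 1.47, 4.17, 1.78 and 1.28 CPM in WT 1, 2, 3 and 4. Cd3e measured 1.69, 0.436 and 0.636 CPM in Srp72+/-, against 0.0612, 2.81, 0.154 and 3.23 CPM in WT. Cd3g measured 1.85, 0.756 and 0.212 CPM in Srp72+/-, against 0, 2.31, 0.766 and 0.227 CPM in WT. WT 2 was the highest library for Cd3d and Cd3g and the second for Cd3e, where WT 4 was above it. Of the 72 reads of Cd3e in WT 4, 39 fell on the retained-intron transcript Cd3e-202. The coding transcript Cd3e-201 had 33 reads in WT 4 and 28 in WT 2. Srp72+/- 1 was the highest of its genotype for all 3 chains, and the groups overlapped. The log2 fold changes were -0.29, -0.76 and 0.19, and that of Cd3d was -1.96 with an offset for transcript length.

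Cd247, the zeta chain that carries the main signalling motifs of the receptor (chromosome 1, 165788681 to 165877277, plus strand), had the highest median level per length of the receptor complex (6.89 TPM), but its reads are of uncertain origin. It measured 9.70, 1.42 and 7.67 CPM in Srp72+/- 1, 2 and 3, against 4.77, 6.87, 2.01 and 7.89 CPM in WT 1, 2, 3 and 4, with a log2 fold change of 0.22 and overlapping groups. Of its 5329 exonic bases, 3007 (56.4%) lie in exons of Pou2f1, a gene on the opposite strand that measured between 77.8 and 151 CPM. The transcript Cd247-205 held 71.2% of the Cd247 reads and has 73.0% of its bases in exons of Pou2f1. It had 175, 0 and 191 estimated reads in Srp72+/- and 32, 99, 0 and 130 in WT. The transcript Cd247-201, with no base in exons of Pou2f1, held 23.7% and had 2, 21 and 59 reads in Srp72+/- and 47, 4, 38 and 37 in WT. On Cd247-201 alone, Srp72+/- 1 and WT 2 were the lowest libraries, the opposite of the pattern of Cd3d and Cd3g. Because no source used here states the strand setting of the quantification, reads of Cd247 and Pou2f1 cannot be told apart over the shared bases.

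**Figure D4:**
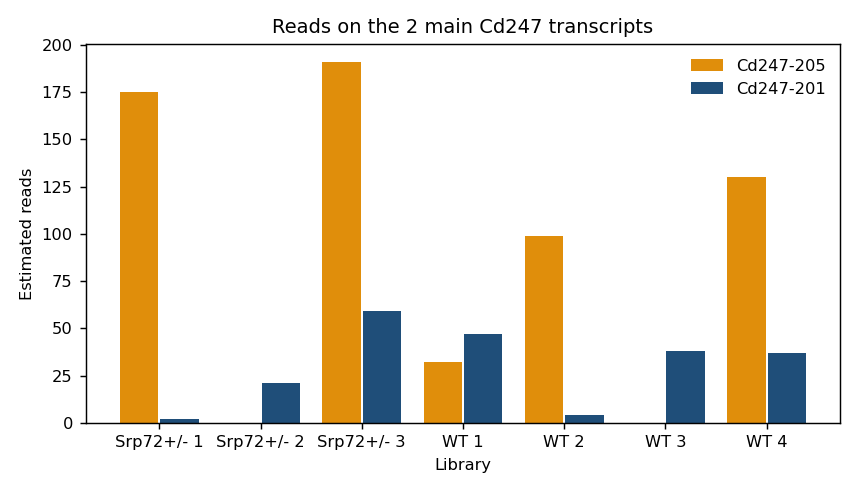
Estimated reads on the 2 transcripts of Cd247 with the most reads, per library, Srp72+/- left and WT right. Cd247-205, which shares 73.0% of its bases with exons of Pou2f1 on the opposite strand, swings between 0 and 191 reads, and Cd247-201, which shares none, is lowest in Srp72+/- 1 (2 reads) and WT 2 (4 reads).

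The coreceptors were low, and each exceeded 3 reads in 6 of the 7 libraries. Cd8a measured 1.95, 0.909 and 0.0606 CPM in Srp72+/- 1, 2 and 3, against 0.561, 3.42, 1.01 and 0.494 CPM in WT 1, 2, 3 and 4. Cd8b1, its partner chain, measured 1.72, 0.344 and 0.171 CPM in Srp72+/-, against 0.188, 1.48, 0 and 1.11 CPM in WT. Both chains of CD8 were high in Srp72+/- 1 and WT 2, with overlapping groups and log2 fold changes of -0.51 and 0.13. Cd4 differed from them, with 0.160, 0.494 and 2.74 CPM in Srp72+/- and 1.16, 1.34, 0.342 and 0.0897 CPM in WT (log2 fold change 0.65). Of the 91 reads of Cd4 in Srp72+/- 3, its highest library, 70 fell on the retained-intron transcript Cd4-202, and over all libraries 42.1% of the reads of Cd4 were on a coding transcript.

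Of the receptor-proximal kinases, Lck had similar CPM in all libraries and Txk did not. Lck, the Src-family kinase that starts receptor signalling, measured 2.75, 3.33 and 2.21 CPM in Srp72+/- 1, 2 and 3, against 3.86, 4.97, 3.54 and 2.83 CPM in WT 1, 2, 3 and 4. Its log2 fold change of -0.46 had the smallest standard error of the list (0.44) and did not pass the test, and only Srp72+/- 2 lay above a WT library. Per length it was less even, at 8.18, 3.65 and 1.80 TPM in Srp72+/- and 8.73, 18.5, 6.83 and 12.7 TPM in WT, and its reads lay on different transcripts in different libraries. With an offset for transcript length its log2 fold change was -1.61 (unadjusted p = 0.0619 in edgeR), which did not pass the FDR. Txk, a Tec-family kinase of T cells, measured 3.48, 2.54 and 1.25 CPM in Srp72+/-, against 1.11, 8.44, 0.599 and 0.624 CPM in WT (log2 fold change -0.15). WT 2 was the highest library for both kinases. Just 17.0% of the reads of Txk were on coding transcripts, and 60.6% were on the retained-intron transcript Txk-205. Zap70, the kinase recruited to the phosphorylated CD3 chains, did not pass the filter and had 9, 13 and 0 reads in Srp72+/- and 0, 8, 0 and 0 in WT.

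Of the surface receptors other than Cd27, Thy1 and Cd28 were measurable in all libraries. Thy1, a surface glycoprotein of T cells that is also present at low level on mouse HSCs, measured 2.21, 3.15 and 5.05 CPM in Srp72+/- 1, 2 and 3, against 2.04, 7.11, 6.52 and 4.72 CPM in WT 1, 2, 3 and 4 (log2 fold change -0.54). Cd28, the main costimulatory receptor of naive T cells, measured 3.64, 2.04 and 0.817 CPM in Srp72+/-, against 1.12, 3.51, 5.84 and 1.26 CPM in WT (log2 fold change -0.44). WT 2 and WT 3 were among the 3 highest libraries for both, and the groups overlapped. On coding transcripts lay 41.7% of the reads of Thy1.

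Cd7 and Cd2, adhesion and costimulatory receptors of T and NK cells, were at or near 0 in several libraries. Cd7 measured 4.05, 0.711 and 0.0303 CPM in Srp72+/-, against 0, 5.93, 0.0957 and 0.673 CPM in WT (log2 fold change -0.06). Cd2 measured 1.16, 1.82 and 0 CPM in Srp72+/-, against 0, 1.28, 0 and 0 CPM in WT, and its fitted log2 fold change of 1.67, the highest of the list, rests on these few reads (SE 1.88). Cd2 was thus detected in Srp72+/- 1, Srp72+/- 2 and WT 2 alone. The scavenger-family receptors Cd5 and Cd6, which dampen receptor signalling, did not pass the filter, with at most 17 reads of Cd5 (Srp72+/- 3) and 33 reads of Cd6 (WT 2) in a library.

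The 3 transcription factors of the T lineage were again highest or second in WT 2. Tcf7 encodes TCF1, which sets up the T lineage in the thymus, and measured 4.01, 1.42 and 1.42 CPM in Srp72+/- 1, 2 and 3, against 0.336, 7.72, 0.191 and 2.20 CPM in WT 1, 2, 3 and 4. Lef1, its close relative, measured 4.20, 1.69 and 0.113 CPM in Srp72+/-, against 2.53, 3.00, 0.815 and 1.03 CPM in WT. Bcl11b, needed for commitment to the T lineage, measured 1.71, 0.400 and 0.0908 CPM in Srp72+/-, against 0.0559, 2.12, 2.11 and 0 CPM in WT. Srp72+/- 1 was the highest of its genotype for each, the groups overlapped, and the log2 fold changes were -0.19, 0.11 and -0.57.

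NK receptor genes other than Klrb1c varied widely between libraries of 1 genotype. Il2rb, the beta chain of the receptors for interleukin 2 and interleukin 15, measured 15.4, 6.13 and 1.82 CPM in Srp72+/- 1, 2 and 3, against 0.615, 22.1, 0.335 and 4.04 CPM in WT 1, 2, 3 and 4. Klrk1 (NKG2D, an activating receptor for stress ligands) measured 6.23, 0.978 and 0.0605 CPM in Srp72+/-, against 0.112, 9.31, 2.06 and 3.23 CPM in WT. WT 2 was the highest library and Srp72+/- 1 the second for both. Ncr1 (NKp46, an activating NK receptor) measured 1.80, 0.533 and 0.121 CPM in Srp72+/-, against 0, 7.08, 0 and 0.0897 CPM in WT. Klrd1 (CD94, the partner of the NKG2 receptors) measured 4.65, 0.400 and 0.363 CPM in Srp72+/-, against 0, 4.27, 0 and 0.673 CPM in WT. Ncr1 and Klrd1 had no read in WT 1 and WT 3, and the groups overlapped in all 4 genes. The log2 fold changes were 0.20 for Il2rb, -0.61 for Klrk1, -1.13 for Ncr1 and 0.55 for Klrd1.

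Among the cytotoxic effectors, Ctsw and Ccl5 were above the limit of detection in every library, and the killing molecules themselves were not. Ctsw, a cathepsin of cytotoxic lymphocytes, measured 4.07, 9.78 and 3.45 CPM in Srp72+/- 1, 2 and 3, against 2.07, 2.10, 11.3 and 5.03 CPM in WT 1, 2, 3 and 4 (log2 fold change 0.17). Ccl5, a chemokine of effector T and NK cells, measured 6.07, 1.56 and 1.54 CPM in Srp72+/-, against 0.224, 7.56, 2.58 and 3.14 CPM in WT (log2 fold change -0.14). Ccl5 was highest in WT 2 while Ctsw was low there. Gzmb, the protease granzyme B, measured 0.739, 0.889 and 0 CPM in Srp72+/-, against 0, 1.34, 0 and 0.135 CPM in WT (log2 fold change 0.57). Gzma, granzyme A, had 37, 9 and 0 reads in Srp72+/- and 0, 3, 0 and 0 in WT and was not tested. Prf1, the pore-forming perforin, had 13, 9 and 0 reads in Srp72+/- and 2, 2, 3 and 5 in WT and was not tested either. All 3 killing genes had no read in Srp72+/- 3, and Gzma and Gzmb had none in WT 1 and WT 3.

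The T-box factors of cytotoxic cells were low throughout. Eomes measured 2.36, 0.448 and 0.152 CPM in Srp72+/- 1, 2 and 3, against 0.0589, 1.35, 0.193 and 1.01 CPM in WT 1, 2, 3 and 4 (log2 fold change 0.61). Tbx21, which encodes T-bet, had 0, 1 and 12 reads in Srp72+/- and 1, 10, 0 and 0 in WT and was not tested. Eomes was highest in Srp72+/- 1 and second in WT 2, and the groups overlapped.

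To place the genes beside HSC and mature cell transcripts, the level in WT 2, the library with the fewest HSC and most neutrophil reads, was set against the median of the other 6 libraries. Of the 30 tested genes, 16 were highest in WT 2 (53.3%) and 2, Lat and Cd27, were lowest there (6.67%), against 22.9% and 26.6% of all tested genes. The filter on low counts bears on this count, since 6 of the 30 (Cd2, Cd8b1, Bcl11b, Klrd1, Ncr1 and Gzmb) pass it only with WT 2 among the libraries. Of the 24 that pass without WT 2, 13 were highest in WT 2 and 2 lowest, against 22.1% and 27.2% of the 19856 genes that do so. In 12 of the 16 (75.0%), the second highest library was Srp72+/- 1, against 42.1% of all genes that were highest in WT 2. The ratio of WT 2 to the median of the other 6 libraries had a median of 4.65 over the list and of 0.943 over all tested genes, and of 3.87 over the 24. It was below 1 for 4 genes, with values of 0.160 for Lat, 0.224 for Cd27, 0.277 for Klrb1c and 0.463 for Ctsw, and above 1 for 25. For Cd2 it could not be formed because the median of the other 6 was 0. Cd247 (1.11), Lck (1.62) and Thy1 (1.81) lay closest to 1. Il2rb (7.56), Trbc1 (8.35) and Cd7 (15.4) lay far above it.

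WT 2 was picked by the sums of the HSC and neutrophil genes, so the ratios of these lists follow in part from that choice. All 21 HSC genes were lowest in WT 2, with a median ratio of 0.0734. All 12 neutrophil genes (median ratio 7.56) and all 6 mast cell and basophil genes (17.1) were highest there, as were 7 of 8 tested monocyte genes (9.72), 9 of 11 erythroid genes (24.4) and 5 of 7 tested B cell genes (6.28). The 3 tested plasmacytoid dendritic cell genes differed from these lists, with none highest in WT 2 and a median ratio of 0.584. Of 5 tested early lymphoid genes, 3 were highest there (5.56), and of 2 tested group 2 innate lymphoid genes, 1 was highest and 1 lowest. Most T and NK genes thus had ratios above 1, as did most genes of the neutrophil, mast cell and basophil, monocyte, erythroid and B cell lists. Lat, Cd27 and Klrb1c had ratios below 1, as did the HSC genes, but less extreme than the median of the HSC list. The part of mature cell RNA in the level of any one gene was not tested.

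**Figure D5:**
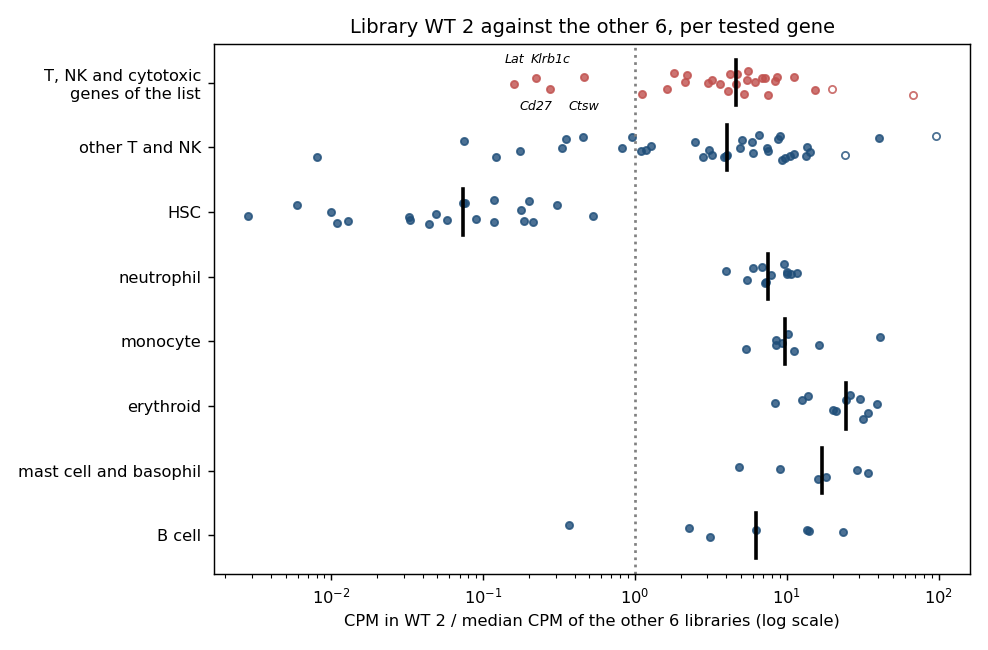
Ratio of the CPM in WT 2 to the median CPM of the other 6 libraries (log axis) for each tested gene of the list (top row, red) and of other lists (blue), with a black line at each median. Open circles have a median of the other 6 below 0.166 CPM, and genes with a ratio of 0 or with a median of 0 are not drawn. The list's median is 4.65, with Lat, Cd27, Klrb1c and Ctsw below 1, and that of the HSC list is 0.0734.

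A wider set of 57 T and NK genes outside the 36, of which 39 were tested, gave a similar account. Fitted values were higher in Srp72+/- for 15 and lower for 24, the median log2 fold change was -0.20, 0 passed the FDR in edgeR and 0 had an unadjusted p below 0.05. The smallest p among the higher ones belonged to Runx3 (log2 fold change 0.93, SE 0.71), a factor of cytotoxic cells, and the next to Trat1 (0.46, SE 0.47), a receptor-associated adaptor. Among the lower ones it belonged to Il18r1 (-0.99, SE 0.69), Skap1 (-1.10, SE 0.89) and Klri2 (-1.94, SE 1.87), an interleukin 18 receptor chain, an adaptor of T cells and an NK receptor. None of these 5 genes passed the test.

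Of the 39, 24 were highest in WT 2 (61.5%) and 8 were lowest there (20.5%), against 22.9% and 26.6% of all tested genes. Their median ratio was 4.01. The filter on low counts bears on this count too, since genes such as Ctla4 have few reads outside WT 2. The count was not repeated over the genes that pass the filter without WT 2. Those that were lowest included Fyn, Foxp3, Gata3, Tox, Serpinb9, Serpinb6b and Cd96, named here after their values were seen. Gata3, a factor of T cell development with a known place in HSCs, measured 15.9, 14.2 and 7.29 CPM in Srp72+/- 1, 2 and 3, against 15.8, 2.49, 14.0 and 14.5 CPM in WT 1, 2, 3 and 4. Tox, a factor of T cell development, measured 21.1, 38.8 and 17.2 CPM in Srp72+/-, against 52.7, 2.54, 29.4 and 61.3 CPM in WT. Cd96, a receptor of T and NK cells, measured 6.29, 13.2 and 14.2 CPM in Srp72+/-, against 17.8, 1.53, 12.2 and 10.5 CPM in WT. These 3 had the pattern of Cd27 and Lat, with WT 2 below every other library and overlapping genotypes. The highest mean CPM of the wider set, on a scale that takes no account of length, belonged to Lcp2, Fcer1g, Nkg7, Tyrobp and Il18rap. Nkg7, a granule protein of cytotoxic cells, measured 43.0, 24.4 and 84.4 CPM in Srp72+/- and 18.7, 176, 23.2 and 22.1 CPM in WT. Lcp2, the adaptor SLP-76 that binds to the Lat complex and is used in many blood cells, was even, at 94.2, 134 and 161 CPM in Srp72+/- and 119, 135, 147 and 168 CPM in WT.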

How the data were processed

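RNA was measured in 7 libraries, and the groups follow the genotype labels. Per the labels' protocols, RNA of sorted cells was amplified with the NuGEN Ovation V2 system before library preparation, which can enlarge differences between libraries of few cells. The deposited tables give estimated counts (expected counts) and TPM per transcript, made with Salmon 0.12.0 per the submitters' processing notes, which name the builds mm10 and GRCm38.p6. Of 136288 transcripts 136176 matched GENCODE M21. Estimated counts were summed per gene and rounded. Levels per length were rescaled here over protein-coding and receptor constant genes, so that non-coding RNAs do not enter their total. Mitochondrial ribosomal RNA took between 26.28% and 31.37% of the reads of a library and is part of the total behind CPM.

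The filter on low counts was filterByExpr (10 per library and 15 in total). After TMM scaling, Srp72+/- was set against WT with edgeR 4.0.16 in R 4.3.3, by its quasi-likelihood test at an FDR of 0.05 (Benjamini-Hochberg). CPM are TMM-scaled. Alternatives were RLE scaling, no filter, an offset for transcript length, a stricter filter (10 counts and 1 CPM in at least 3 libraries), DESeq2 1.42.0, the replicate number as a block, and libraries left out. The position of WT 2 under RLE scaling and over genes that pass the filter without WT 2 was added after seeing the data. All 36 genes are accounted for, with values per library for each tested gene. Of the other T and NK genes, the 3 with the smallest p in each direction and the 5 with the highest mean CPM are named, except for a gene that is not reported here. In the marker lists 1 symbol had no match. The genes and lists were chosen with earlier results of these data known. Promoter sequences are from RefSeq.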

Additional observations from a re-analysis of the deposited data

Results flagged for a closer look

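In 31 items examined with Dixon's ratio on log2(CPM + 0.1) (the 30 tested genes and Srp72), 1 WT library stood far from the other WT libraries in a pair of genes, both times WT 2, and chance flags about 1 item in 20. Both genes pass the filter on low counts only with WT 2 among the libraries, so they entered the examination through its value. Cd2 had 1.28 CPM in WT 2 and 0 in the other WT libraries, a ratio of 1.0, which any value above 0 in WT 2 would have given. Ncr1 had 7.08 CPM in WT 2 and at most 0.0897 CPM in the other WT libraries, a ratio of 0.85.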

How the results depend on the processing

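Under all alternatives 0 of the 36 genes passed the FDR of 0.05. Over all genes 0 passed, except 9 with DESeq2 and 1 without WT 4, so that leaving out 1 library gave between 0 and 1. All 36 genes exceeded the limit of detection in at least 1 library with a floor of 10 reads, on coding transcripts alone and without each library. Under RLE scaling 17 genes were highest in WT 2 and 2 lowest. The median log2 fold change of the tested genes was 0.016 with no filter (0.132 over all genes, 36 of the list tested) and -0.24 with the transcript length offset. When 1 library was left out it lay between -1.05 and 0.44, and that over all tested genes between -0.049 and 0.036. With no filter, Gzma had an unadjusted p of 0.035 in edgeR (log2 fold change 3.99), as 1 of the 36. In that fit 1133 of all 40992 genes had an unadjusted p below 0.05. Without WT 2, Trbc2 (2.93) and Txk (1.62) had unadjusted p of 0.0179 and 0.0365 in edgeR, as 2 of the 24 tested. In that fit 962 of all 19856 genes had an unadjusted p below 0.05. None of Gzma, Trbc2 and Txk passed the FDR.

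The length offset turned the direction of Cd3g (-0.01), Cd7 (0.09) and Lef1 (-1.08), and without turning it moved Cd3d to -1.96, Lck to -1.61, Cd4 to 1.54 and Klrk1 to -1.43. Without WT 2 and Srp72+/- 1 the direction turned for Cd247 (-0.10), Trbc1 (1.27), Txk (1.25), Cd7 (0.47), Tcf7 (0.64), Lef1 (-0.69) and Eomes (-0.49). Without 1 library, log2 fold changes ranged from -1.24 to 0.24 for Cd3d, -0.79 to 1.47 for Cd3g, -0.26 to 0.67 for Cd247, -1.16 to 1.90 for Trbc1, -1.15 to 1.13 for Cd4, -1.57 to 0.48 for Cd8a, -1.37 to 0.60 for Cd8b1, -0.55 to 1.62 for Txk, -2.22 to 2.58 for Cd7, -0.67 to 0.43 for Cd27, -1.05 to 0.12 for Cd28, -0.90 to 1.32 for Tcf7, -1.06 to 0.67 for Lef1, -1.71 to 1.03 for Klrd1, -2.86 to 0.42 for Klrk1, -0.81 to 2.22 for Il2rb, -0.04 to 1.16 for Gzmb, -1.14 to 0.62 for Ccl5, -0.46 to 0.90 for Ctsw, -1.13 to 1.23 for Eomes. These ranges cover only the fits in which a gene passed the filter, and Cd8b1, Klrd1 and Gzmb did not pass it without WT 2. The cause of these shifts was not tested.

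Libraries of the same number did not deviate together (correlations of -0.32, -0.16 and 0). These correlations rest on few libraries and cannot settle whether the numbers pair the animals. With the replicate block 0 genes passed and the median was 0.35, beside 0.034 over all tested genes. WT 4 has no Srp72+/- library of its number, so it adds nothing to the genotype difference in that fit. The direction turned for Cd3e (1.40), Cd3g (-0.13), Trbc1 (2.83), Cd4 (-0.60), Txk (0.34), Tcf7 (1.62), Lef1 (-0.84), Ncr1 (1.89) and Ccl5 (0.02). Counting error bears most on the 6 untested genes, which had at most 37 reads in a library.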
